A study of Homo sapiens with 12 samples.

Results

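The genes for the protein factors that carry out translation in the cytoplasm were described at the RNA and ribosome footprint level in MDA-MB-231, a widely used human cell line derived from triple-negative breast cancer. Members were selected by a rule on gene symbols. They are the eukaryotic initiation factor genes EIF1 to EIF6, the elongation factor genes EEF1 and EEF2, the release factor genes ETF1 and GSPT1, and PABPC1, PABPC4, TPT1, RACK1, DENR, MCTS1 and ABCE1. EIF4EBP1 and EEF1E1 were left out. The rule found 58 of the 6777 genes tested. Of these, 33 are counted here as initiation factors, that is subunits of the initiation complexes and single factors such as EIF1 and EIF5B. Another 6 encode the elongation factors eEF1 and eEF2. The rest are the eIF5A genes and genes of termination, recycling, non-canonical initiation or poly(A) binding. They also include ribosome-associated genes, kinase genes, a methyltransferase gene and EIF4A3.

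Cells were kept for 4 h in 10 nM AZD0095, an inhibitor of the lactate exporter MCT4, or in the solvent DMSO. RNA-seq and ribosome profiling, which sequences the mRNA fragments covered by ribosomes, were each done on 3 libraries per treatment, 12 libraries in all. All 4 groups share the unmodified cell line and the same serum-containing medium. The series asks how lactate that accumulates in the cell affects transcription and translation, and the comparisons below ask it of the translation factors themselves. Whether the replicates were cultured separately is not stated in the labels, and the p-values therefore cover only how far these libraries vary, which could be technical variation.

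In textbook outline, initiation begins when eIF2 brings the initiator tRNA to the small ribosomal subunit, helped by eIF1, eIF1A, eIF5 and the large scaffold eIF3. The cap-binding complex eIF4F, made of the cap-binding protein eIF4E, the scaffold eIF4G and the helicase eIF4A, recruits the mRNA, and eIF5B joins the subunits at the start codon. eIF2B reloads eIF2 with GTP, and kinases that phosphorylate eIF2 block that step. During elongation eEF1A delivers aminoacyl-tRNAs, the eEF1B subunits recharge eEF1A, and eEF2 moves the ribosome along. Many genes of this machinery begin their mRNAs with a terminal oligopyrimidine (TOP) tract, a C and a run of pyrimidines, through which mTORC1 signalling is known to adjust their translation.

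RefSeq promoter sequences of GRCh38.p14 were available for 47 of the 58 members. A tract was counted where the base at the annotated start was a C followed by at least 4 pyrimidines (C or T), on the transcribed strand only. It was present in 12 of the 47 members (25.5%), against 4.07% of all 35116 promoters in the table and 6.24% of the 5657 tested genes with an entry. Initiation factors had 7 of 27 (25.9%) and elongation factors 2 of 4 (50.0%). If the tract was allowed to begin up to 5 bases from the annotated start, members had 19 of 47 (40.4%), against 21.1% of all promoters and 22.6% of tested genes. The 12 members with a tract at the start were EEF1A1, EEF2, EIF2D, EIF2S3, EIF3D, EIF3F, EIF3K, EIF3M, EIF4A2, EIF4B, RACK1 and TPT1. The windows below show 8 of them, followed by 4 members without a tract that matter in the results. Each window runs 5′ to 3′ from 5 bases before the annotated start into the first transcribed bases, and capitals mark the tract.
EEF1A1, chr6:73521013-73521037, minus strand: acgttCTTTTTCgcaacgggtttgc
EEF2, chr19:3985444-3985468, minus strand: gcgttCTCTTCCgccgtcgtcgccg
RACK1, chr5:181243887-181243911, minus strand: tctctCTCTCTTTCactgcaaggcg
TPT1, chr13:45341164-45341188, minus strand: tcggcCTTTTCCgcccgctcccccc
EIF4B, chr12:53006451-53006475, plus strand: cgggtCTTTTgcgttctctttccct
EIF4A2, chr3:186783572-186783596, plus strand: gctgtCTTTTCagtcgggcgctgag
EIF3F, chr11:7987332-7987356, plus strand: gcctcCTTCTTTCTCgacaagatgg
EIF2D, chr1:206612446-206612470, minus strand: cgggcCCTTTTCgcggccgggcccc
EIF5A, chr17:7306994-7307018, plus strand: acccgaccacactagcgcgctagaa
EIF1AX, chrX:20141819-20141843, minus strand: gcggcgccatttgctgccgccgagc
EIF4G1, chr3:184314601-184314625, plus strand: gagccggaaatggttgtggactacg
ABCE1, chr4:145098306-145098330, plus strand: tgggcaccgccattttggccggtgg
A match describes these letters at an annotated start and does not show a working element.

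The footprint libraries were shallow and of unequal depth, with an implied 107087 to 192324 reads in DMSO and 141122 to 501350 in AZD0095, while that of the RNA libraries could not be recovered and remains unknown. The highest gene of an RNA library was at 9486 and 10006 FPKM in the replicate 1 libraries of DMSO and AZD0095 and at 13200 to 14840 FPKM in the others, in each case a mitochondrially encoded cytochrome oxidase gene. The mesenchymal markers VIM (2492 to 2799 FPKM) and CD44 (739 to 843.9 FPKM) were high in every RNA library, and of 5 luminal markers KRT19 (124.6 to 165.6 FPKM) and EPCAM (9.33 to 12.5 FPKM) were listed, whereas ESR1, GATA3 and FOXA1 were not. In all, 545 of 6777 genes (8.04%) were called in RNA at a limma adjusted p under 0.05.

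Translation factor mRNAs were abundant. In DMSO 52 of 58 members lay above the median gene in RNA and 50 of 58 in footprints, and the median member stood at percentile 90.9 of all genes in RNA and 84.0 in footprints. FPKM is scaled to gene length and library size, and levels are compared between genes on that scale, although the lengths used are not known. EEF1A1, which encodes the main eEF1A isoform, was far above all other members at 7021 ± 389 FPKM of RNA in DMSO (SD, n = 3) and alone took 1.44% to 1.66% of the summed RNA FPKM of a library. Next came EEF1G, a subunit of the eEF1B exchange complex, at 1025 ± 17.4 FPKM. RACK1, a scaffold protein of the small ribosomal subunit, followed at 914 ± 7.04 FPKM, PABPC1, the main cytoplasmic poly(A) binding protein, at 856 ± 19.9 FPKM, and TPT1, the translationally controlled tumour protein, at 765 ± 27.2 FPKM. At the other end EEF2K, the kinase that inactivates eEF2, was at 3.17 ± 0.307 FPKM.

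**Figure D1:**
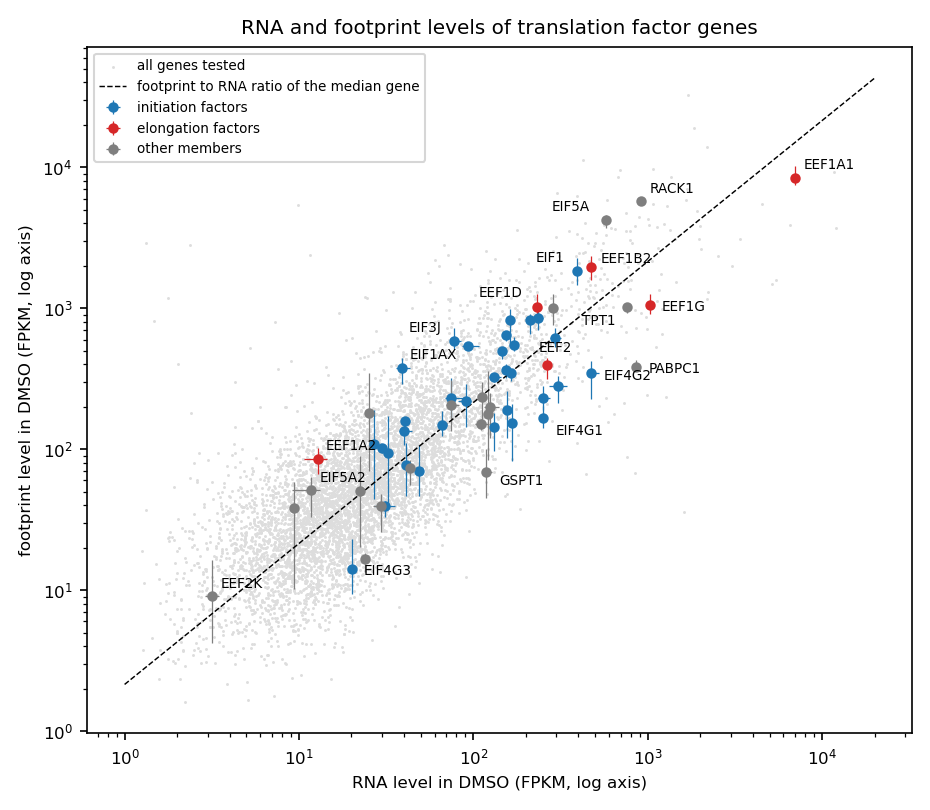
RNA level (x axis) against footprint level (y axis) of the 58 translation factor genes in DMSO, both in FPKM on log axes, with points at the mean of 3 libraries and bars from the lowest to the highest library. EEF1A1 lies at the top right at 7021 FPKM of RNA, EEF2K at the lower left at 3.17 FPKM, and PABPC1 and EIF4G1 lie well under the dashed line of the median gene's footprint to RNA ratio.

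Within the elongation factors the members differed more than in any initiation complex. EEF1A1 exceeded its paralog EEF1A2, an isoform known mainly from neurons and muscle, 549-fold in RNA and 98.3-fold in footprints in DMSO. EEF1A2 RNA was at 10.7, 14.4 and 13.3 FPKM in the DMSO libraries and 16.2, 15 and 14.98 FPKM in the AZD0095 libraries. EEF2, the translocase, stood at 264 ± 6.48 FPKM, below the eEF1B subunit gene EEF1B2 at 470 ± 9.73 FPKM and close to EEF1D at 231 ± 7.75 FPKM. The 6 elongation factor genes together made up 49.8% to 50.8% of the members' summed RNA FPKM in each of the 6 RNA libraries. In footprints that share was 28.1% to 35.3%, below the RNA range in every library.

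Genes of the initiation complexes spanned narrower ranges than the elongation factors, though not equal levels. The widest were the eIF4F and cap-binding genes, 23.7-fold in RNA and 34.8-fold in footprints, and the 3 scanning and joining genes, 12.75-fold and 47.0-fold. The 5 genes of eIF2B, the exchange factor of eIF2, spanned 26.8 to 48.9 FPKM of RNA, a 1.83-fold range, and 69.8 to 158 FPKM of footprints, a 2.26-fold range. The 13 listed genes of eIF3 spanned 66.5 FPKM (EIF3A, the largest core subunit) to 306 FPKM (EIF3E), a 4.60-fold range with a coefficient of variation of 39.3% over subunits. In footprints they ran over a 5.76-fold range, from 149 FPKM for EIF3A to 858 FPKM for EIF3C. Reads of EIF3C may be shared with its near-identical copy EIF3CL, not analysed here, so its level is uncertain. Of the 3 eIF2 subunits, EIF2S1 (alpha, the subunit that is phosphorylated under stress) was at 131 ± 12.2 FPKM, EIF2S2 (beta) at 93.5 ± 11.8 and EIF2S3 (gamma) at 39.9 ± 3.87 FPKM of RNA. Their footprints did not follow that order: EIF2S2 was highest at 537 ± 21.6 FPKM, EIF2S1 at 323 ± 24.3 and EIF2S3 at 134 ± 24 FPKM.

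Among the eIF4F genes the scaffold homologs were ranked the same way in both readouts. EIF4G2, a homolog that lacks the eIF4E binding site, was at 476 ± 42.5 FPKM of RNA, 1.88-fold above EIF4G1 at 253 ± 14.1 FPKM, and EIF4G1 was 12.6-fold above EIF4G3 at 20.04 ± 0.919 FPKM. The cap-binding protein gene EIF4E was at 74.9 ± 10.4 FPKM and its homolog EIF4E2 at 32.6 ± 1.41 FPKM. EIF4A2, a helicase paralog, was at 253 ± 21.7 FPKM. The main helicase gene EIF4A1 and the kinase gene EIF2AK3 are not analysed here. EIF5A, the hypusine-bearing factor that helps ribosomes through difficult peptide bonds, exceeded EIF5A2 49.1-fold in RNA and 82.9-fold in footprints.

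The footprint level of a gene relative to its RNA, called translational efficiency (TE) here, was taken as log2(footprint FPKM + 1) minus log2(RNA FPKM + 1). No source used here gives the gene lengths behind the RNA values, so every comparison of TE between genes, including that with the median gene at 1.10 in DMSO, also carries any difference in length between the 2 assays. The SD of a TE combines the SDs of the 3 RNA and the 3 footprint libraries as if these were independent. Whether an RNA and a footprint library of the same number belong together was not tested. Translation factors spread to both sides of the median gene: 30 of 58 members (51.7%) were above it, and the highest member exceeded the lowest 20.9-fold. EIF1AX, which encodes the scanning factor eIF1A, was highest at 3.23 ± 0.35 (SD), 4.39-fold above the median gene. EIF3J, a loosely bound eIF3 subunit, followed at 2.89 ± 0.30, EIF5A at 2.87 ± 0.17 and RACK1 at 2.65 ± 0.02. These 4 genes carried more footprints for their RNA than at least 91.3% of all genes.

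At the low end stood PABPC1 at -1.16 ± 0.15, which is 4.77-fold under the median gene and at percentile 1.9. GSPT1, which encodes the GTPase release factor eRF3a, was at -0.86 ± 0.59, EIF4G1 at -0.63 ± 0.29 and EIF4G3 at -0.57 ± 0.66. EIF4G2 was close to them at -0.51 ± 0.50, so all 3 eIF4G homologs lay at or below percentile 6.91, whereas EIF4E stood at 1.57 ± 0.50 and EIF4B, a cofactor of the helicase, at 1.21 ± 0.52. The SDs of GSPT1, EIF4G3 and EIF4G2 are as wide as their distances from each other, so their order is not resolved.

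Elongation factors divided into a low and a high set in TE. EEF1G (0.03 ± 0.24), EEF1A1 (0.25 ± 0.26) and EEF2 (0.57 ± 0.28) were all below the median gene at 1.10, and EEF1B2 (2.04 ± 0.29), EEF1D (2.11 ± 0.29) and EEF1A2 (2.64 ± 0.37) were all above it. Both sets hold subunits of eEF1B, and both hold an eEF1A isoform. The TE order of members was much the same with AZD0095: across the 58 genes DMSO and AZD0095 values correlated with a Spearman rho of 0.884, against 0.821 across all genes, a description over genes that share libraries and lengths.

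**Figure D2:**
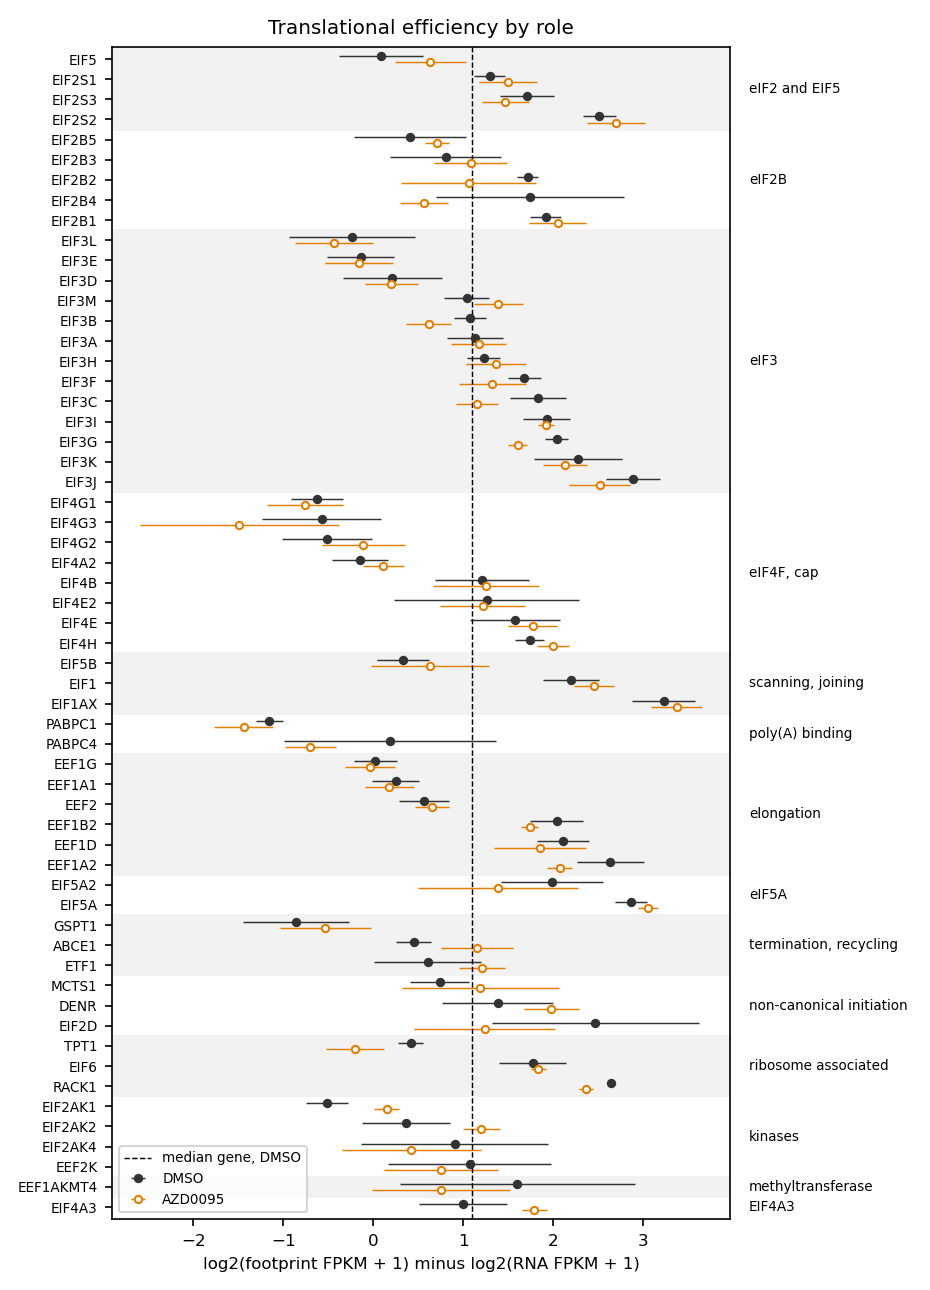
Translational efficiency of each translation factor gene on the log2 scale (x axis), grouped by role, as means in DMSO (filled) and AZD0095 (open) with bars of 1 SD that combine the spread of 3 RNA and 3 footprint libraries, with a dashed line at the median gene in DMSO (1.10). EIF1AX, EIF3J, EIF5A and RACK1 lie far to the right, and PABPC1, GSPT1 and the 3 eIF4G genes to the left.

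Few translation factor genes were called in RNA with AZD0095. At a limma adjusted p under 0.05, 1 of 58 members was called (1.72%), against 8.04% of all genes tested. None rose (background 5.03%), 1 fell (background 3.01%) and 57 did not pass. The count depended on single libraries: it was 0 to 8 with 1 library left out, and without AZD0095 replicate 1 it was 8 of 58 members beside 1112 of 6777 genes. With array weights it was 19 of 58 members beside 3086 of 6777 genes. At an unadjusted p under 0.05 there were 10 members (17.2%), against 24.2% of all genes. The median log2 change of the members was -0.02, against 0.01 for all genes, and the members ran from -0.37 to 0.35. The main limma fit, with no batch term, weights or rescaling, called 0 of the 33 initiation factor genes and 0 of the 6 elongation factor genes. Other fits of all 6 RNA libraries did call some, among them EIF5 with median centring and EEF1G with replicate 1 as a batch.

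PABPC4, which encodes an inducible poly(A) binding protein, was the member that fell. Its RNA was at 124, 121 and 119 FPKM in the DMSO libraries and 99.6, 103 and 103 FPKM in the AZD0095 libraries. The 2 groups were tight and did not overlap, with means of 122 ± 2.52 and 102 ± 2.03 FPKM (SD, n = 3). The log2 fold change was -0.25 ± 0.05 (SE, limma adjusted p = 0.0162). The call was lost without DMSO replicate 2 (adjusted p = 0.0881), AZD0095 replicate 2 (0.0704) or AZD0095 replicate 3 (0.0536), each by limma, while the change stayed between -0.27 and -0.24 without any single library. The gene, ENSG00000090621, spans chromosome 1 from 39560816 to 39576790 in GRCh38.p14. PABPC1, its abundant paralog, was at 876, 855 and 836 FPKM in DMSO and 877, 808 and 835 FPKM in AZD0095, a log2 change of -0.03 with overlapping groups.

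The initiation factor genes nearest to a call were EIF3C and EIF5. RNA of EIF5, the GTPase activator of eIF2, was at 139, 131 and 126 FPKM in DMSO and 119, 105 and 97.9 FPKM in AZD0095. All 3 AZD0095 libraries lay below all 3 DMSO libraries, and the log2 change was -0.30 ± 0.08 (SE, limma adjusted p = 0.051). EIF3C, in contrast, was at 233, 250 and 226 FPKM in DMSO and 276, 263 and 293 FPKM in AZD0095, again without overlap, with a log2 change of 0.23 ± 0.06 (limma adjusted p = 0.0502). Both sat at the threshold: with median centring EIF5 reached an adjusted p of 0.0284 and EIF3C 0.0561, and over the alternatives tried the limma adjusted p ran from 0.000132 to 0.174 for EIF5 and from 0.00735 to 0.163 for EIF3C. The other 2 members of the 4 lowest changes, EIF3J (-0.29) and ABCE1 (-0.37), were not called. EIF3J RNA was at 85.0, 73.1 and 75.1 FPKM in DMSO and 77.7, 57.8 and 57.0 FPKM in AZD0095.

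ABCE1, the ATPase that splits ribosomes after termination, showed the widest RNA difference of the members and also the effect of replicate 1. Its RNA was at 123, 107 and 102 FPKM in DMSO and 110, 73.6 and 75.4 FPKM in AZD0095. AZD0095 replicate 1 lay inside the DMSO range and the other 2 AZD0095 libraries far below it, so the change of -0.37 ± 0.15 had a limma adjusted p of 0.168. The highest changes were those of EIF5A2 (0.35 ± 0.14), EEF1A2 (0.26 ± 0.11), EEF2K (0.24 ± 0.10) and EIF3C. Without 1 DMSO library the first pair were smaller, EIF5A2 at 0.19 without replicate 2 and EEF1A2 at 0.14 without replicate 1. EIF5A2 RNA was at 13.2, 9.16 and 12.9 FPKM in DMSO and 16.6, 15.2 and 13.6 FPKM in AZD0095. EEF2K was at 3.13, 2.88 and 3.49 FPKM in DMSO and 3.71, 4.34 and 3.77 FPKM in AZD0095. For both genes the groups did not overlap, but the gaps were small and the limma adjusted p was 0.174 and 0.168.

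**Figure D3:**
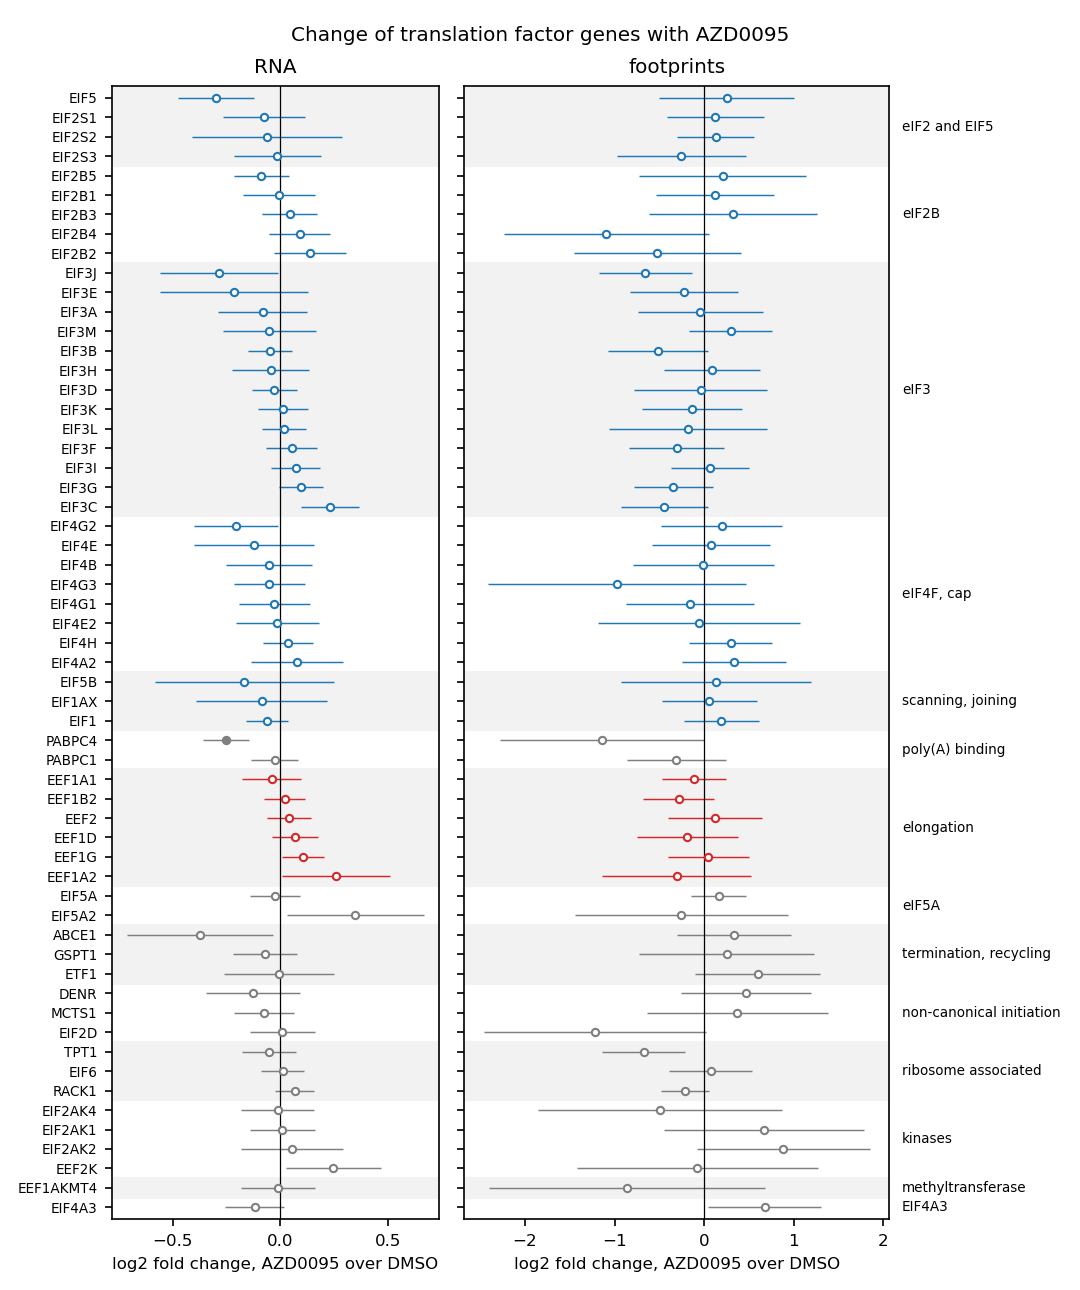
Log2 fold change of each translation factor gene with AZD0095 over DMSO in RNA (left) and footprints (right), grouped by role, with 95% confidence intervals from limma and a filled point where the adjusted p was under 0.05; blue marks initiation, red elongation and grey other members. PABPC4 in RNA is the single filled point, and footprint intervals are several times wider than RNA intervals.

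Several members differed between replicate 1 and the other replicates as much as between treatments. The mean log2 RNA level of the replicate 1 libraries minus that of replicates 2 and 3 had a median of 0.07 over the members, against 0.02 over all genes, and exceeded the treatment change in size for 37 of 58 members (63.8%), against 50.6% of all genes. It was 0.48 for EIF5B, 0.42 for EIF2S2, 0.41 for EIF3E and 0.40 for ABCE1. In replicates 2 and 3 alone, a fit chosen after the data were seen, 9 members were called in RNA by limma: ABCE1 (-0.48), EIF3J (-0.36), EIF5 (-0.34), EIF3E (-0.31), EIF5B (-0.29), PABPC4 (-0.22) and EIF4G2 (-0.21) fell, and EIF5A2 (0.37) and EIF3C (0.22) rose. That fit called 1395 of 6777 genes in all. EIF5B shows the pattern: its RNA was at 35.6, 30.4 and 27.1 FPKM in DMSO and 37.6, 23.5 and 23.2 FPKM in AZD0095, so that in AZD0095 replicate 1 alone was high. The part of replicate 1 in these changes was not tested beyond these fits.

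**Figure D4:**
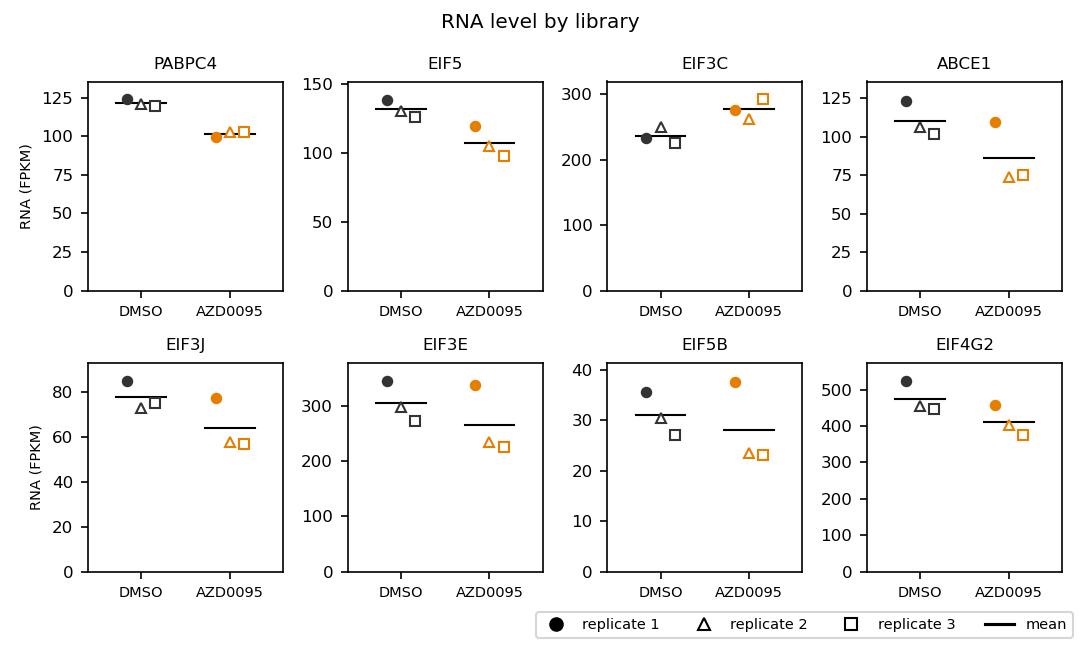
RNA level in FPKM (y axis, from 0) of 8 translation factor genes in each library, DMSO in black and AZD0095 in orange, with replicate numbers by symbol and a line at the group mean. PABPC4, EIF5 and EIF3C separate by treatment, while in ABCE1, EIF3J, EIF3E and EIF5B the AZD0095 replicate 1 library lies near the DMSO libraries.

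Elongation factor genes other than EEF1A2 had RNA changes between -0.04 (EEF1A1) and 0.10 (EEF1G). EEF2 was at 257, 265 and 270 FPKM in DMSO and 267, 269 and 278 FPKM in AZD0095, a log2 change of 0.04 with a 95% interval from -0.06 to 0.14. EEF1A1 was at 7425, 6988 and 6650 FPKM in DMSO and 7156, 6604 and 6695 FPKM in AZD0095, a change of -0.04 with an interval from -0.18 to 0.09 that became 0.08 with quantile normalization. EEF1G was at 1035, 1005 and 1035 FPKM in DMSO and 1117, 1074 and 1113 FPKM in AZD0095, so every AZD0095 library was higher. The EEF1G change had an SE of 0.04 and a limma adjusted p of 0.182, which was 0.0457 with replicate 1 as a batch. EIF4G1 (-0.03), EIF4E (-0.12), EIF2S1 (-0.08), EIF2B5 (-0.09), EIF3A (-0.08), EIF6 (0.01), TPT1 (-0.05) and the kinase genes EIF2AK1 (0.01), EIF2AK2 (0.05) and EIF2AK4 (-0.01) stayed within 0.13 of 0 on the log2 scale and did not pass. In RNA the groups did not overlap for 11 members (19%), against 29.2% of all genes: 8 were higher with AZD0095 (background 17.7%) and 3 lower (11.5%).

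In footprints 0 of 58 members and 0 of 6777 genes (0%) passed at a limma adjusted p under 0.05. At an unadjusted p under 0.05 there were 3 members (5.17%), against 7.82% of all genes. The median standard error of a member's footprint change was 0.30, against 0.07 for RNA, so that a change of the size seen in RNA was not detectable in these libraries. The part of read depth in that error was not tested. Groups did not overlap for 12 members (20.7%), against 13% of all genes, with 6 higher (background 7.19%) and 6 lower (5.77%). The 3 members with the smallest footprint p were TPT1, EIF3J and EIF4A3.

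TPT1 had the lowest unadjusted p of the members in footprints. Its footprints were at 1057, 1097 and 926 FPKM in DMSO and 803, 521 and 630 FPKM in AZD0095. The highest AZD0095 library lay below the lowest DMSO library, while RNA was at 797, 750 and 749 against 787, 721 and 707 FPKM. The footprint log2 change was -0.68 ± 0.21 (SE, limma adjusted p = 0.626) and stayed between -0.84 and -0.53 without any single footprint library. EIF3J footprints were at 527, 726 and 517 FPKM in DMSO and 442, 323 and 354 FPKM in AZD0095, also without overlap, a change of -0.66 ± 0.24 (limma adjusted p = 0.626). In the other direction EIF4A3, a helicase paralog that sits in the exon junction complex, was at 249, 155 and 300 FPKM in DMSO and 331, 375 and 383 FPKM in AZD0095. These values rest on 39, 21 and 73 reads in DMSO and 59, 103 and 243 reads in AZD0095, and the change was 0.68 ± 0.29 (limma adjusted p = 0.631). It was 0.40 without DMSO replicate 2.

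RACK1 had tight footprint values in DMSO. They were at 5807, 5657 and 5706 FPKM in DMSO and 4773, 5237 and 4838 FPKM in AZD0095, with no overlap between groups. RACK1 RNA was at 907, 921 and 914 FPKM in DMSO and 948, 959 and 962 FPKM in AZD0095, a change of 0.07 that was -0.02 with quantile normalization. The footprint change was -0.21 ± 0.12 (SE, limma adjusted p = 0.723), and it became 0.01 with quantile normalization. EEF1A1 footprints were at 7450, 7649 and 10200 FPKM in DMSO and 6400, 7852 and 9200 FPKM in AZD0095, a change of -0.11 that was 0.17 with quantile normalization and 0.03 without DMSO replicate 3 or AZD0095 replicate 1. EEF2 footprints were at 313, 441 and 435 FPKM in DMSO and 370, 468 and 452 FPKM in AZD0095, overlapping, with a change of 0.13 and a 95% interval from -0.40 to 0.65.

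The most negative footprint changes rested on single libraries. EIF2D, a factor for non-canonical initiation and recycling, was at 70.4, 346 and 126 FPKM in DMSO and 98.8, 70.6 and 33.6 FPKM in AZD0095. Its change of -1.22 was -0.60 without DMSO replicate 2 and -0.79 without AZD0095 replicate 3. PABPC4 footprints were at 357, 88.9 and 83.4 FPKM in DMSO and 50.6, 64.3 and 74.8 FPKM in AZD0095. The groups did not overlap and the direction was that of its RNA, but the change of -1.14 became -0.46 without DMSO replicate 1. EIF2B4, the gene of a regulatory subunit of eIF2B, was at 44.1, 191 and 92.5 FPKM in DMSO and 49.0, 34.6 and 46.2 FPKM in AZD0095. Its change of -1.09 was -0.57 without DMSO replicate 2. EIF4G3, at 10.3, 9.46 and 22.9 against 2.48, 5.83 and 14.9 FPKM, was at -0.97 and overlapped between groups. Its change was -0.44 without AZD0095 replicate 1, -0.59 without DMSO replicate 3 and -1.54 without AZD0095 replicate 3.

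Among the kinases, EIF2AK2, the double-stranded RNA sensor PKR, had the highest footprint change of all members. Its footprints were at 25.9, 48.0 and 44.7 FPKM in DMSO and 65.5, 73.0 and 76.1 FPKM in AZD0095, a change of 0.89 ± 0.44 (SE, limma adjusted p = 0.666). EIF2AK1, the kinase HRI that reports heme shortage and mitochondrial stress, was at 18.0, 18.3 and 13.5 FPKM in DMSO and 29.5, 26.3 and 24.9 FPKM in AZD0095. For both kinases every AZD0095 library was above every DMSO library while their RNA changes were 0.05 and 0.01, and neither passed the test. Their DMSO footprints stood only at percentiles 37.9 and 14.3 of all genes, and their read counts were not recovered. EIF2AK4, the amino acid sensor GCN2, was at 20.3, 89.1 and 42.9 FPKM in DMSO and 50.8, 31.2 and 17.1 FPKM in AZD0095, a spread too wide to show a direction. EEF2K footprints were at 6.37, 4.23 and 16.5 FPKM in DMSO and 11.2, 4.17 and 8.13 FPKM in AZD0095.

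The 3 genes of termination and recycling had positive footprint changes with a median of 0.33. ETF1, the release factor that reads stop codons, was at 120, 251 and 230 FPKM in DMSO and 264, 281 and 327 FPKM in AZD0095. Its change of 0.60 was 0.27 without DMSO replicate 1. ABCE1 footprints were at 137, 164 and 154 FPKM in DMSO and 159, 221 and 197 FPKM in AZD0095, opposite to its RNA, and GSPT1 was at 60.1, 45.3 and 101 against 60.3, 67.1 and 116 FPKM. None of the 3 passed. DENR and MCTS1, partners in reinitiation and recycling, had changes of 0.47 and 0.37. With 1 library left out these ran from 0.20 to 0.80 and from 0.12 to 0.88. The DENR values rest on 14, 9 and 37 reads in DMSO and 25, 30 and 100 reads in AZD0095.

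**Figure D5:**
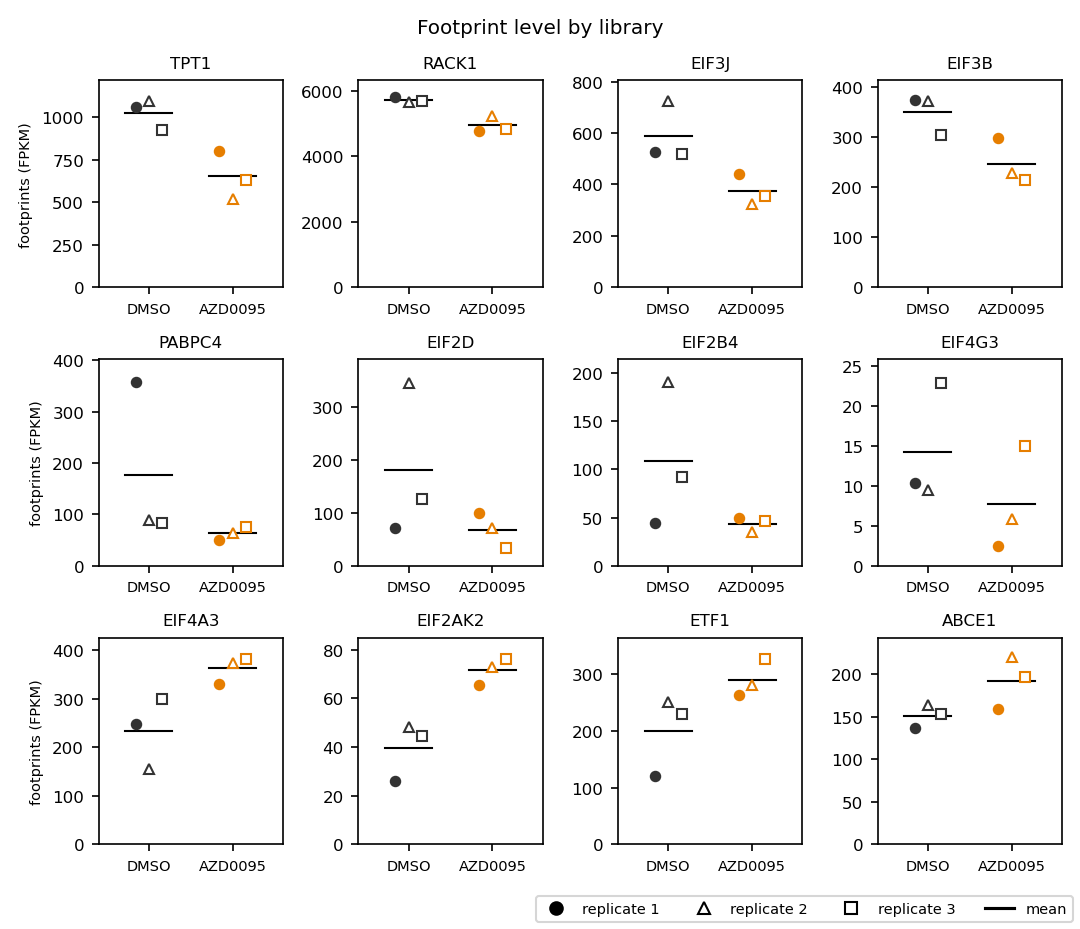
Footprint level in FPKM (y axis, from 0) of 12 translation factor genes in each library, DMSO in black and AZD0095 in orange, with replicate numbers by symbol and a line at the group mean. TPT1, RACK1, EIF3J and EIF3B are lower in every AZD0095 library, whereas the high DMSO means of PABPC4, EIF2D and EIF2B4 each come from 1 library.

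The eIF3 genes were more often lower than higher in footprints with AZD0095. Of the 13 genes 10 had a negative change, with a median of -0.18, against 3176 of 6777 and a median of 0.04 over all genes, and 0 passed. That count depended on single libraries. With 1 library left out, the negative changes of EIF3A, EIF3D, EIF3K and EIF3L reached 0.13, 0.21, 0.03 and 0.10. The positive changes of EIF3H and EIF3I reached -0.06 and -0.09 in the same way. EIF3J (-0.66), EIF3B (-0.51), EIF3C (-0.45) and EIF3G (-0.34) were the most negative, while EIF3M was at 0.30. EIF3B, a core scaffold subunit, was at 374, 372 and 303 FPKM in DMSO and 297, 228 and 213 FPKM in AZD0095. In RNA the same genes had a median change of -0.03 with 7 of 13 negative. Initiation factors outside eIF3 had a median footprint change of 0.13, with 7 of 20 negative.

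The TE comparison asked whether footprints changed beyond RNA, as the interaction of assay and treatment over all 12 libraries. By limma 0 of 58 members and 0 of 6777 genes (0%) passed. At an unadjusted p under 0.05 there were 8 members (13.8%), against 8.53% of all genes. The fit gave each gene a shared residual variance for its RNA and footprint libraries. The median SE of a member was 0.283 for the TE change and 0.302 for the footprint change. Over all genes these were 0.471 and 0.507. A TE change contains the footprint change, so its SEs and unadjusted p-values may be too small. The lowest changes were those of EIF2D (-1.23), EIF2B4 (-1.18), EIF4G3 (-0.92) and PABPC4 (-0.88), whose footprint values depend on single libraries as given above. The highest were those of EIF2AK2 (0.83), EIF4A3 (0.80), ABCE1 (0.71) and EIF2AK1 (0.66). TPT1 went from a TE of 0.42 ± 0.14 to -0.20 ± 0.32, a change of -0.62 ± 0.20 (SE, limma adjusted p = 0.468), and stayed between -0.79 and -0.47 without any single library. EIF3C went from 1.84 ± 0.31 to 1.16 ± 0.23, a change of -0.68 ± 0.22 (limma adjusted p = 0.472) in which RNA and footprints moved apart.

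Elongation factors were set against initiation factors by the difference of the 2 medians. For RNA and footprints it was taken in each library, and for TE over the mean TE of each gene. In DMSO the median elongation factor exceeded the median initiation factor by 1.40 ± 0.10 on the log2 scale in RNA (SD, n = 3) and by 1.97 ± 0.28 in footprints. In TE the difference was 0.04, and it was 0.75 with the 2 eIF5A genes counted as elongation factors. The SDs of the RNA and footprint differences combine to 0.29, which is not an SD of the TE difference itself. The TE difference ran from -0.04 to 0.08 with 1 library left out. In RNA the difference was 1.296, 1.406 and 1.495 with DMSO and 1.389, 1.559 and 1.645 with AZD0095. In footprints it was 1.77, 2.28 and 1.84 in DMSO and 1.41, 2.36 and 1.93 in AZD0095. Both readouts overlapped between treatments. Taken over the fitted changes instead, the median change of elongation factors minus that of initiation factors was 0.10 in RNA, from 0.03 without DMSO replicate 1 to 0.14 without AZD0095 replicate 1. The same measure was -0.14 in footprints, from -0.24 without AZD0095 replicate 2 to 0.07 without AZD0095 replicate 1. By counts, 5 of 6 elongation factor genes and 11 of 33 initiation factor genes had a positive RNA change, and 4 of 6 and 17 of 33 a negative footprint change. Over all 6777 genes, 3545 had a positive RNA change and 3176 a negative footprint change.

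Members with a TOP tract at the annotated start were more abundant than those without, with a median RNA level of 211 FPKM (n = 12) against 77.7 FPKM (n = 35). Their median TE in DMSO was 1.13 against 1.26, but that order depended on the definition of a tract. When the tract could also begin near the annotated start, the median TE was 1.26 with it and 1.04 without. These wider classes held 19 and 28 members. Under the definition at the start, both classes held low and high members. RACK1 at 2.65 and EIF4A2 at -0.15 have a tract, EIF1AX at 3.23 and GSPT1 at -0.86 have none. The median footprint change with AZD0095 was -0.12 with a tract at the start, 9 of 12 negative, and 0.08 without, 13 of 35 negative. Over all tested genes with an entry, apart from 1 symbol listed under 2 IDs, the medians were -0.02 for 351 genes with a tract and 0.05 for 5304 without. EEF2, EIF4A2 and EIF2D show the range among members with a tract: their footprint changes were 0.13, 0.34 and -1.22. These are descriptions of windows and medians with no test.

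Genes that act on the translation factors, but lie outside the symbol rule, were read from 4 lists. Of 15 listed regulators of initiation 2 rose in RNA (5.03% of all genes did), 1 fell (3.01% of all genes) and 12 did not pass; the median log2 change was 0.02. EIF4EBP1, whose product sequesters eIF4E, was at 66.0, 64.3 and 67.4 FPKM in DMSO and 85.2, 78.1 and 79.4 FPKM in AZD0095. Each AZD0095 library was above each DMSO library, and the change was 0.29 ± 0.05 (SE, limma adjusted p = 0.0185, up to 0.104 with 1 library left out). MKNK2, a kinase of eIF4E, went from 15.7 ± 1.02 to 21.6 ± 0.904 FPKM (SD, n = 3; log2 change 0.44, limma adjusted p = 0.0128, up to 0.0546). MLST8, a subunit of both mTOR complexes, went from 30.5 ± 0.805 to 24.9 ± 1.58 FPKM (-0.29, limma adjusted p = 0.0405, up to 0.17). EIF4E, the gene of the shared target of the EIF4EBP1 and MKNK2 products, was at 87.0, 69.5 and 68.4 FPKM in DMSO and 80.3, 64.7 and 61.4 FPKM in AZD0095.

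Of 8 listed genes of ribosome rescue and quality control 2 rose (5.03% of all genes) and 6 did not pass; the median was 0.07. GTPBP2, a GTPase that acts on stalled ribosomes, went from 16.7, 17.7 and 17.4 FPKM to 28.3, 32.5 and 29.7 FPKM, a change of 0.77 ± 0.07 (SE, limma adjusted p = 0.00106) that was called without each single library. GTPBP1, its paralog, rose by 0.38 (limma adjusted p = 0.0335, up to 0.12). Of the 7 listed enzymes that make the hypusine of eIF5A and the diphthamide of eEF2, 0 rose, 1 fell (3.01% of all genes) and 6 did not pass; the median was -0.12. DPH2, of the first step of diphthamide synthesis, fell from 23.3 ± 0.62 to 17.8 ± 0.862 FPKM (-0.37, limma adjusted p = 0.0164, up to 0.0815). Of 7 listed mitochondrial translation factors MTRFR rose (5.03% of all genes did; 0.40, limma adjusted p = 0.026, up to 0.113), 0 fell and 6 did not pass.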

How the data were processed

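The authors deposited FPKM values per gene, 1 table for each of the 12 libraries. The submitters' processing notes name fastp, Bowtie2, STAR and the hg38 build. Which step each served, how reads were counted, and which gene lengths entered the FPKM were not given in the sources used here. Per the labels, cells for ribosome profiling got cycloheximide, and RNase I digestion followed removal of nuclei and mitochondria from the lysate. The RNA libraries are titled total RNA but have polyadenylated RNA as molecule, which is not settled here. Each table held 6785 genes, all above 1 FPKM (lowest value 1.002). After 8 repeated entries were removed, 6777 were tested.

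RNA and footprints were compared with limma 3.58.1 in R 4.3.3, two-sided, with a variance trend, on log2(FPKM + 1), so that the change of low genes is understated. TE was the assay by treatment interaction, with a residual variance per gene shared by its RNA and footprint libraries. Benjamini-Hochberg adjustment ran over all 6777 genes. Footprint depth was recovered from steps in the deposited FPKM: values within 0.02 of a whole read in each library were found for 1408 genes (20.8%), of which 10 are members, and read counts are given for members only where found. The fits and the depth search were tested on simulated data. Members, role lists and pathway lists were chosen with earlier results of these data known. Named were called members, the 4 highest and 4 lowest by RNA, footprint and TE change and by TE in DMSO, fixed key factors, called pathway genes and EIF4EBP1. EIF2S2, EIF2S3, EIF3B, EIF3E, EIF3G, EIF3M and EIF4E2 were named after their values were seen. No promoter entry was used for EEF1A2, EEF1D, EIF2AK1, EIF2S2, EIF3A, EIF3E, EIF3G, EIF3H, EIF3L, PABPC1 and PABPC4. Python 3.11.15 was used for tables and figures. Reads shared with paralogs or pseudogenes, as for EEF1A1, EIF3C, EIF5A, RACK1 and TPT1, are uncertain, because the handling of such reads is not stated.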

Additional observations from a re-analysis of the deposited data

How the results depend on the processing

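Of 188 alternative values for 11 results, 162 kept a similar count or stayed within the spread, and 26 moved. Among the differences of elongation minus initiation factors, the spread was 0.549 for the footprint change of -0.141. It was 0.164 for the RNA change of 0.099 and 0.293 for the TE difference of 0.04. Such values could shift by more than their own size and still count as kept. Footprint and TE call counts that stayed at 0 also counted as kept. A turn of sign was not counted in this sorting. The footprint change of elongation minus initiation factors, -0.141 in the main fit, was 0.072 without AZD0095 replicate 1 and 0.085 with replicates 2 and 3 only. Their TE difference in DMSO, 0.04, was -0.042 and -0.003 without footprint DMSO replicates 1 and 2, and -0.011 with quantile normalization. Each kept its sign in the other fits. The 545 genes called in RNA became 1622 with a replicate block, 3086 with array weights (whose estimation stopped before converging), 1660 with replicate 1 as a batch, 1395 with replicates 2 and 3 only, and 100 to 1112 with 1 library left out (100 without DMSO replicate 2, 116 and 214 without AZD0095 replicates 2 and 3, 249 and 280 without DMSO replicates 3 and 1, 1112 without AZD0095 replicate 1). The 1 member called in RNA became 2 with a pseudocount of 5 or median centring, 3 with quantile normalization, 9 with the replicate block, replicate 1 as a batch or replicates 2 and 3 only, 19 with array weights, and 0 to 8 with 1 library left out. With the block the 9 included 1 elongation factor gene, EEF1G (limma adjusted p = 0.0387). Replicates 2 and 3 only was added after the data were seen. The main fit did not pair samples by replicate number. Deviations of same-numbered DMSO and AZD0095 RNA libraries correlated at 0.622, 0.086 and 0.489 across genes for numbers 1, 2 and 3. Those of footprints correlated at 0.009, -0.022 and 0.091. RNA deviations were thus shared for numbers 1 and 3 but hardly for number 2, and footprint deviations for none. The 0 TE calls became 1 without a variance trend, and 0 to 4 with 1 library left out (4 without footprint DMSO replicate 1, 3 without replicate 2). The RNA difference between elongation and initiation factors was 1.85 with means in place of medians, and the TE difference 0.75 with eIF5A among elongation factors. The causes of these shifts were not tested. The spread of the footprint libraries limits every statement on footprints and TE, and some members had few reads: EEF1AKMT4 had 1 to 11 reads and EIF5A2 2 to 9 reads per library. The part of depth in that spread was not tested.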
